A study of Danio rerio with 12 samples.

Results

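Sugar is taken up, burned and made in the liver and gut by a small set of proteins, and 9 of their genes were followed here in zebrafish larvae that lack a working *ercc2/xpd* gene: slc5a1, slc2a2, LCT, gck, PKLR, khk, pck1, pck2 and fbp1b. They were chosen by name, as liver and gut genes of sugar uptake, glycolysis and gluconeogenesis. Earlier results of these data were known when they were chosen, so the set is not independent of the values. The names were matched to the files' identifiers through a table of gene names, ignoring case, and every identifier that matched was kept. The 9 symbols matched 10 of the 37541 identifiers in the files, since LCT matched 2. Symbols in capitals are names that the table carries over from the human gene. PKLR, slc5a1 and LCT also stand in the expression heatmap of the study, so their direction is not independent evidence.

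In the gut, sugars are cut by enzymes on the brush border of enterocytes, and glucose then enters the cell with sodium and leaves it towards the blood through a facilitated carrier. In the liver, glucose is phosphorylated, broken down to pyruvate by glycolysis, stored as glycogen, or made anew from lactate and amino acids by gluconeogenesis, which bypasses the irreversible steps of glycolysis with its own enzymes. Glycolysis and gluconeogenesis run in opposite directions, and liver cells usually favour one of them according to feeding. The embryo lives on yolk, and the larva begins to feed at about the ages studied.

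Whole larvae of the AB strain were compared in 4 groups of 3 RNA-seq libraries each: homozygous mutants (ercc2/xpd -/-) at 5 and at 7 days post-fertilization (dpf), and their siblings, a mixture of wild-type and heterozygous larvae (ercc2/xpd+/+ and ercc2/xpd+/-), at the same ages. The mutant line carries a short CRISPR/Cas9 deletion in a late exon. Each library came from a pool of larvae, and the labels do not say whether the pools came from separate clutches, so every p-value is relative to how much these pools varied. The methods of the study describe a pigment-blocking agent (PTU) in the water of embryos, and do not say whether the sequenced larvae received it.

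The values are FPKM, the fragments of a gene per kilobase of its length, scaled by a term for each library. That term, recovered from the values, ran from 1.29e+07 to 1.68e+07 and was not the read total. It was below the reads in every 7 dpf sibling library, sibling 5 dpf replicate 2 and mutant 7 dpf replicate 3. In the remaining libraries it was above the reads, which lowers their FPKM relative to scaling by reads. Each library held 13403615 to 15084280 reads, recovered as whole numbers from the FPKM, with 12.4% to 17.0% of a library in its 10 most abundant genes. The transcript of the targeted gene, ERCC2, was still present: it stood at 2.56 to 3.57 FPKM in the 6 mutant libraries and at 3.78 to 6.38 FPKM in the 6 sibling libraries, with no overlap, and its log2 fold change missed the threshold at both ages (-0.48 at 5 dpf, limma adjusted p = 0.201, and -0.62 at 7 dpf, adjusted p = 0.0612). Differences were tested with limma on log2(FPKM + 0.5) over the 23648 genes that reached 0.5 FPKM in 3 or more of 12 libraries, and a gene was called when its p-value, adjusted over all of these genes, was under 0.05. For a gene near or under 0.5 FPKM the added 0.5 makes the fitted log2 fold change too small.

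Of the 10 identifiers, 9 were tested. At 5 dpf, 5 of the 9 were called lower in mutants (PKLR, gck, slc5a1, LCT and slc2a2) and 0 higher. Among all tested genes, 2.16% were called lower and 0.655% higher at that age. At 7 dpf, 4 of the 9 were called lower (PKLR, LCT, slc2a2 and khk) and again 0 higher, beside 3.25% of all tested genes called lower and 1.8% called higher. PKLR, LCT and slc2a2 were called lower at both ages. The 5 calls at 5 dpf depended on the libraries: 1 was left without mutant replicate 1, 2 without sibling replicate 2, and 3 without mutant replicate 3 or sibling replicate 1 of that age. The median log2 fold change of the 9 was -0.73 at 5 dpf and -0.91 at 7 dpf, beside 0.02 and 0.01 for all tested genes. In the higher direction, 0 of the 9 reached an unadjusted p under 0.05 in limma at either age, and voom on the recovered reads called 0. LCT passed the filter through sibling libraries alone, and gck through the 3 sibling libraries at 5 dpf and 1 mutant library. Without both, the lower calls were 3 of 7 at each age, with medians of -0.62 and -0.91. The gluconeogenesis genes pck1, pck2 and fbp1b were not called at either age.

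Every mutant library lay below every sibling library for 6 of the 9 tested genes at 5 dpf and for 5 of the 9 at 7 dpf (4 of 7 at each age without LCT and gck). Over all tested genes that held for 10.3% at 5 dpf and 12.9% at 7 dpf. In whole larvae, fewer cells of a type and less RNA per cell cannot be told apart, and this holds for each gene below.

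**Figure D1:**
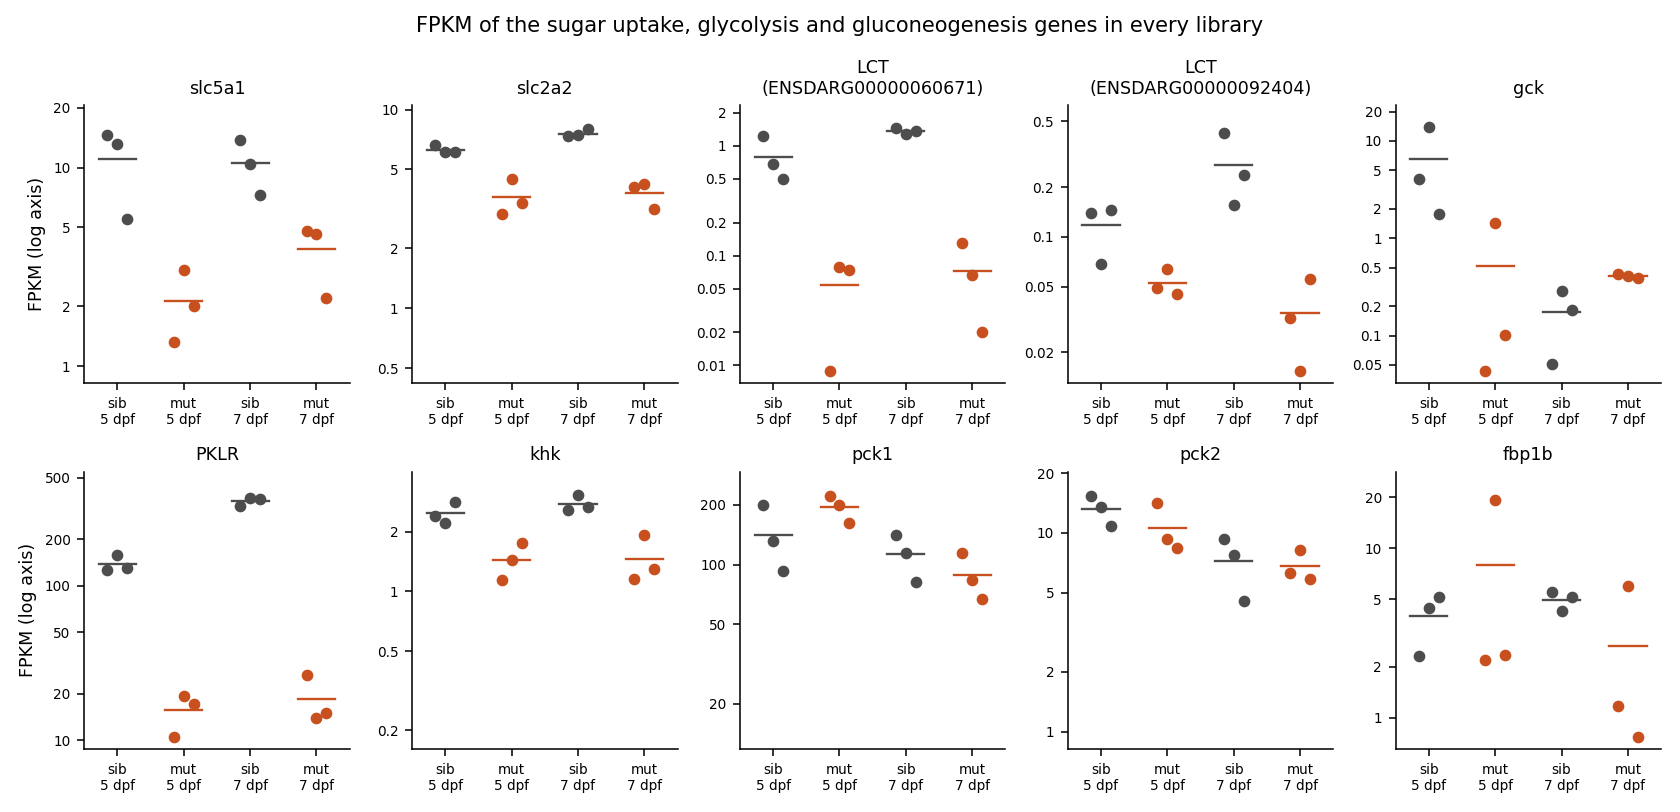
FPKM of each of the 10 identifiers in every library on a log axis, with siblings in grey, mutants in orange, 3 points per group and a line at the group mean. PKLR, slc5a1, slc2a2, khk and LCT (ENSDARG00000060671) show every mutant library below every sibling library at both ages, whereas pck1, pck2 and fbp1b overlap.

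The carriers and the enzyme of the brush border came first in the path of sugar. slc5a1 (ENSDARG00000013871, GRCz11 chromosome 10, 17135631 to 17159761, minus strand) encodes SGLT1, the cotransporter that draws glucose and galactose into enterocytes with sodium. Its FPKM in the 3 mutant libraries at 5 dpf was 1.32, 3.06 and 2.02, beside 14.6, 13.1 and 5.48 in siblings. At 7 dpf it was 4.82, 4.62 and 2.20 in mutants and 13.7, 10.5 and 7.32 in siblings. The groups did not overlap at either age, although the lowest sibling library at 5 dpf stood well apart from the other 2. The mean was 5.19-fold lower in mutants at 5 dpf, where the log2 fold change was -2.08 ± 0.39 (SE, limma adjusted p = 0.0118), and 2.71-fold lower at 7 dpf, where it was -1.35 ± 0.39 and missed the threshold (adjusted p = 0.0691). Without mutant replicate 1 or sibling replicate 2 the 5 dpf call was lost (adjusted p = 0.0664 and 0.0646). The 7 dpf difference passed in 4 of 23 alternatives, among them the replicate number as a block (adjusted p = 0.0254) and leaving out sibling 5 dpf replicate 3 (adjusted p = 0.0327). The difference between the ages was not called (0.73 ± 0.55, adjusted p = 0.682), so the effect is not shown to be smaller at 7 dpf.

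slc2a2 (ENSDARG00000056196, chromosome 2, 25816843 to 25837986, plus strand) encodes GLUT2, the low-affinity carrier that passes glucose and fructose across the membranes of hepatocytes, enterocytes and kidney tubule cells. Mutant libraries held 2.98, 4.48 and 3.40 FPKM at 5 dpf and 4.09, 4.22 and 3.14 FPKM at 7 dpf. Sibling libraries held 6.67, 6.10 and 6.09 FPKM at 5 dpf and 7.32, 7.42 and 7.99 FPKM at 7 dpf. The highest mutant library at any age was below the lowest sibling library, and the libraries of a group lay close together. The fall was moderate, to 57.6% of the sibling mean at 5 dpf (log2 fold change -0.73 ± 0.16, limma adjusted p = 0.0255) and 50.4% at 7 dpf (-0.91 ± 0.16, adjusted p = 0.00482). With the values rescaled to TPM both calls were lost (adjusted p = 0.188 and 0.0609), and that rescaling moved the median log2 fold change of all tested genes to 0.20 at both ages. The 5 dpf call held in 15 of 23 alternatives. It was also lost with a replicate block within each age (adjusted p = 0.0701), with the 5 dpf groups fitted alone (adjusted p = 0.0896), and without mutant replicate 1 (adjusted p = 0.123), mutant replicate 3 (adjusted p = 0.0803) or any 1 of the 3 sibling replicates (adjusted p = 0.0609 to 0.0759). The gene overlaps TNIK on the same strand in the files' annotation, so reads in the shared stretch are uncertain.

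LCT is the gene name of lactase, the brush border enzyme that cuts lactose into glucose and galactose in mammals, and the sources used here do not give what the zebrafish genes act on. The first identifier (ENSDARG00000060671) spans 46369932 to 46399611 on the minus strand of chromosome 9, and the second (ENSDARG00000092404) spans 46387419 to 46399611 on the same strand. All 12193 bases of the second lie inside the first, so the files' counting could have split or dropped reads between them, and their separate levels are uncertain. The first held 0.0089, 0.0782 and 0.0741 FPKM in mutants at 5 dpf, from 1, 9 and 9 reads. In siblings at that age it held 1.22, 0.679 and 0.497 FPKM, from 136, 64 and 56 reads. At 7 dpf the mutant libraries held 0.132, 0.0670 and 0.0203 FPKM (15, 8 and 2 reads) and the sibling libraries 1.45, 1.28 and 1.35 FPKM (138, 120 and 126 reads). The mutant libraries lay far below the sibling libraries at both ages, near the level of a few reads. The mean was 14.9-fold lower at 5 dpf and 18.6-fold lower at 7 dpf, and the fitted log2 fold changes were -1.19 ± 0.22 (SE, limma adjusted p = 0.0123) and -1.70 ± 0.22 (adjusted p = 0.000911). The 7 dpf call held in all 23 alternatives, and the 5 dpf call was lost with a replicate block within each age (adjusted p = 0.0505), without mutant replicate 1 (adjusted p = 0.0621) and with the 5 dpf groups fitted alone (adjusted p = 0.0694). The first identifier passed the filter through sibling libraries alone, so that filter favoured a lower call in mutants. The second identifier stayed under the filter and was not tested: its reads summed to 20 in mutants against 42 in siblings at 5 dpf, and to 12 against 84 at 7 dpf.

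gck and PKLR encode the first and the last enzyme of glycolysis in the liver. gck (ENSDARG00000068006, chromosome 8, 40476811 to 40490593, plus strand) encodes glucokinase, which phosphorylates glucose in hepatocytes and pancreatic beta cells, and whose liver transcript is known in fish and mammals to rise after a meal rich in carbohydrate. It was low and uneven: mutants at 5 dpf held 0.0433, 1.42 and 0.1002 FPKM (2, 67 and 5 reads). Siblings at that age held 4.10, 13.8 and 1.79 FPKM (188, 536 and 83 reads). At 7 dpf mutants held 0.427, 0.408 and 0.395 FPKM, and siblings 0.0510, 0.285 and 0.183 FPKM. The highest libraries of all were the 5 dpf siblings, which differed among themselves 7.73-fold, and at 7 dpf the order of the genotypes was the opposite one, with every mutant library above every sibling library at 16 to 20 reads against 2 to 11. At 5 dpf the log2 fold change was -2.64 ± 0.58 (limma adjusted p = 0.0310), and the call held in 14 of 23 alternatives, with p up to 0.143. It was lost with voom on the recovered reads (adjusted p = 0.0707), with library weights (adjusted p = 0.0918), with no filter (adjusted p = 0.0607), with the 5 dpf groups fitted alone (adjusted p = 0.133), and without both libraries of lowest weight (adjusted p = 0.117). Leaving out mutant replicate 1, mutant replicate 3, or either of the first 2 sibling replicates also ended it (adjusted p = 0.0628 to 0.143). At 7 dpf the difference was 0.45 ± 0.58 and not called (adjusted p = 0.728).

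PKLR (ENSDARG00000042010, chromosome 16, 54450407 to 54455573, minus strand) encodes the liver and red cell pyruvate kinase, which turns phosphoenolpyruvate into pyruvate and makes ATP. It had the lowest log2 fold change of the members at both ages, although at 5 dpf the ratio of group means was more extreme for LCT and gck. Mutant libraries held 10.4, 19.2 and 17.2 FPKM at 5 dpf and 26.2, 13.8 and 15.1 FPKM at 7 dpf. Sibling libraries held 126.6, 158.1 and 130.6 FPKM at 5 dpf and 328.8, 367.6 and 365.4 FPKM at 7 dpf. The highest mutant library of either age stood at 26.2 FPKM, far below the lowest sibling library, and the reads behind these values ran from 289 to 8535. The mean was 8.86-fold lower at 5 dpf (log2 fold change -3.15 ± 0.25, limma adjusted p = 0.000122) and 19.3-fold lower at 7 dpf (-4.29 ± 0.25, adjusted p = 8.64e-06). Both calls held in all 23 alternatives, with log2 fold changes of -3.31 to -2.89 at 5 dpf and -4.57 to -4.09 at 7 dpf. Of the 23648 genes tested, 61 had a lower log2 fold change at 5 dpf and 27 at 7 dpf. The difference between the ages was -1.14 ± 0.35 and missed the threshold over all genes (adjusted p = 0.299).

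khk (ENSDARG00000029874, chromosome 17, 12408188 to 12423175, plus strand) encodes ketohexokinase, which phosphorylates fructose and lets it enter glycolysis below the regulated step. Mutants held 1.14, 1.44 and 1.76 FPKM at 5 dpf and 1.15, 1.92 and 1.29 FPKM at 7 dpf, from 40 to 72 reads. Siblings held 2.40, 2.20 and 2.83 FPKM at 5 dpf and 2.58, 3.06 and 2.67 FPKM at 7 dpf, from 65 to 100 reads. The genotypes did not overlap at either age, and within a genotype the ages did. The mutant mean was 58.3% of the sibling mean at 5 dpf (log2 fold change -0.62 ± 0.18, limma adjusted p = 0.111) and 52.6% at 7 dpf (-0.76 ± 0.18, adjusted p = 0.0342). This second call held in 13 of 23 alternatives. It was lost as TPM (adjusted p = 0.142) and without mutant 7 dpf replicate 1 or 3, any sibling 7 dpf replicate or mutant 5 dpf replicate 2, with p of 0.0529 to 0.125 in the other settings that lost it.

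**Figure D2:**
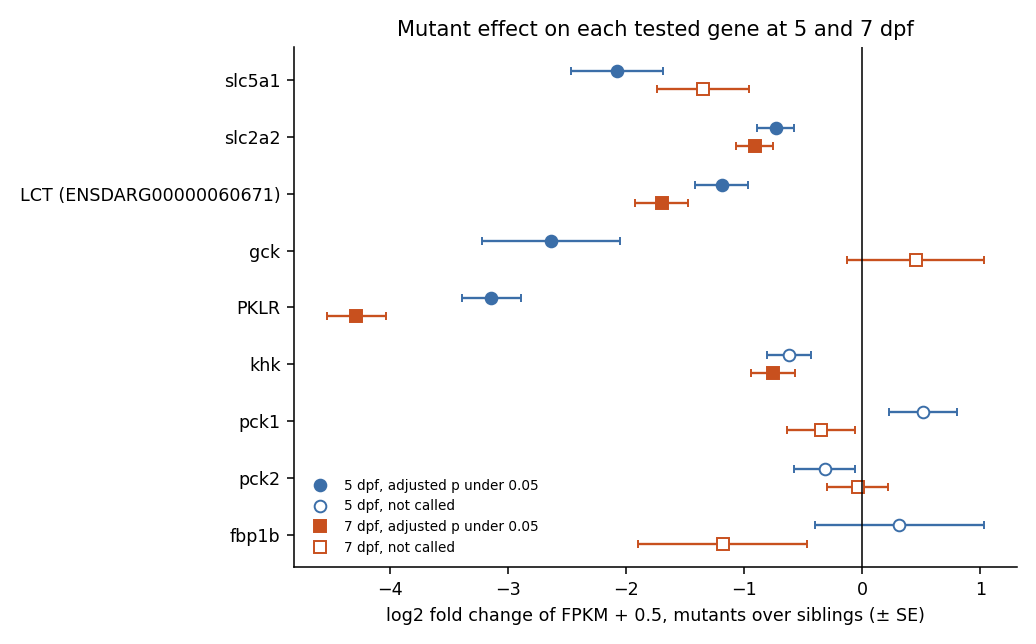
log2 fold change of FPKM + 0.5 in mutants over siblings with its standard error for the 9 tested genes at 5 dpf (circles) and 7 dpf (squares), filled where the limma adjusted p was under 0.05. PKLR lies farthest to the left at both ages, and pck1, pck2 and fbp1b are not called at either.

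The 3 gluconeogenesis genes were not called at either age, and whether they differ from the members above was not tested. pck1 (ENSDARG00000013522, chromosome 6, 60055168 to 60062097, plus strand) encodes cytosolic phosphoenolpyruvate carboxykinase, which makes phosphoenolpyruvate from oxaloacetate and is induced by fasting in the vertebrate liver. Mutants held 221.8, 199.99 and 161.4 FPKM at 5 dpf and 114.5, 84.0 and 67.0 FPKM at 7 dpf. Siblings held 200.1, 131.1 and 93.2 FPKM at 5 dpf and 141.7, 115.0 and 82.1 FPKM at 7 dpf. The genotypes overlapped at both ages, and in each of the 4 groups the library numbered 1 was the highest and the library numbered 3 the lowest. The log2 fold change was 0.51 ± 0.29 at 5 dpf (limma adjusted p = 0.450) and -0.35 ± 0.29 at 7 dpf (adjusted p = 0.554). Between same-numbered libraries the mutant was higher in 3 of 3 pairs at 5 dpf and lower in 3 of 3 at 7 dpf, where the numbers were not found to pair the libraries. With the replicate number as a block adjusted p = 0.0932 and 0.193, still above the threshold.

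pck2 (ENSDARG00000020956, chromosome 24, 12920019 to 12938922, minus strand) encodes the mitochondrial form of the same enzyme. It held 14.1, 9.37 and 8.43 FPKM in mutants and 15.3, 13.5 and 10.9 FPKM in siblings at 5 dpf. At 7 dpf it held 6.25, 8.24 and 5.86 FPKM in mutants and 9.29, 7.75 and 4.55 FPKM in siblings. The genotypes overlapped at both ages, with log2 fold changes of -0.32 ± 0.26 (limma adjusted p = 0.621) and -0.04 ± 0.26 (adjusted p = 0.954).

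fbp1b (ENSDARG00000020364, chromosome 5, 35458190 to 35462126, plus strand) encodes a fructose-1,6-bisphosphatase, the enzyme that reverses the regulated step of glycolysis. Mutants held 2.18, 19.3 and 2.35 FPKM at 5 dpf and 1.18, 5.98 and 0.768 FPKM at 7 dpf. Siblings held 2.32, 4.45 and 5.14 FPKM at 5 dpf and 5.52, 4.27 and 5.13 FPKM at 7 dpf. The library numbered 2 stood far above the other mutant libraries at both ages, 8.82-fold between the highest and lowest at 5 dpf and 7.78-fold at 7 dpf, while the 7 dpf siblings lay within 1.29-fold of each other. The log2 fold change of 0.31 ± 0.72 at 5 dpf (limma adjusted p = 0.894) became -0.63 without mutant replicate 2, and that of -1.18 ± 0.72 at 7 dpf was not called (adjusted p = 0.401). Without mutant 7 dpf replicate 2 the second became -1.90 ± 0.69 (adjusted p = 0.193), since the other 2 mutant libraries of that age lay below every sibling library. The sister gene fbp1a, named here after its values were seen, was higher in level and more even, at 27.7 to 37.4 FPKM in mutants and 37.5 to 49.3 FPKM in siblings at 5 dpf, and at 60.9 to 62.4 and 82.7 to 95.2 FPKM at 7 dpf. Its log2 fold changes were -0.43 (adjusted p = 0.162) and -0.52 (adjusted p = 0.0559). The 2 genes are paralogs, and the counting of reads that fit both is not stated. fbp1b also overlaps erlin2 on the same strand in the files' annotation, so reads in the shared stretch are uncertain. That erlin2 identifier had a mean of 0 FPKM.

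FPKM is per length, so levels can be compared between the genes. In siblings at 7 dpf PKLR was first at a mean of 353.9 ± 21.8 FPKM (SD, n = 3) and pck1 next at 112.9 ± 29.8, with no overlap. slc5a1, slc2a2, pck2 and fbp1b followed at means of 10.5, 7.58, 7.20 and 4.97 FPKM, each overlapping the next in this order. khk and LCT came after them without overlap at 2.77 and 1.36 FPKM, and the second LCT identifier and gck were lowest at 0.272 and 0.173 FPKM and overlapped. In siblings at 5 dpf pck1 and PKLR overlapped at 141.5 ± 54.2 and 138.4 ± 17.2 FPKM (SD, n = 3). In mutants pck1 stood first and clear of PKLR at both ages, at 194.4 ± 30.6 against 15.6 ± 4.62 FPKM at 5 dpf and 88.5 ± 24.1 against 18.4 ± 6.81 FPKM at 7 dpf (SD, n = 3). At 5 dpf PKLR in mutants overlapped pck2, the next in order, at 10.6 FPKM.

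The ratio of pck1 to PKLR within a library, set up after the values were seen, does not depend on the scaling of the libraries. These enzymes stand on opposite sides of phosphoenolpyruvate. The ratio was 21.3, 10.4 and 9.36 in mutants and 1.58, 0.830 and 0.714 in siblings at 5 dpf. At 7 dpf it was 4.37, 6.07 and 4.45 in mutants and 0.431, 0.313 and 0.225 in siblings. Every mutant library was above every sibling library, and within each genotype every 7 dpf library was below every 5 dpf library. The log2 ratio differed between the genotypes by 3.71 at 5 dpf and by 3.98 at 7 dpf. No test is given, since the pair was chosen for how its members differed. Without each library in turn the differences were 3.34 to 4.05 and 3.74 to 4.21. PKLR was called lower at both ages and pck1 at neither.

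**Figure D3:**
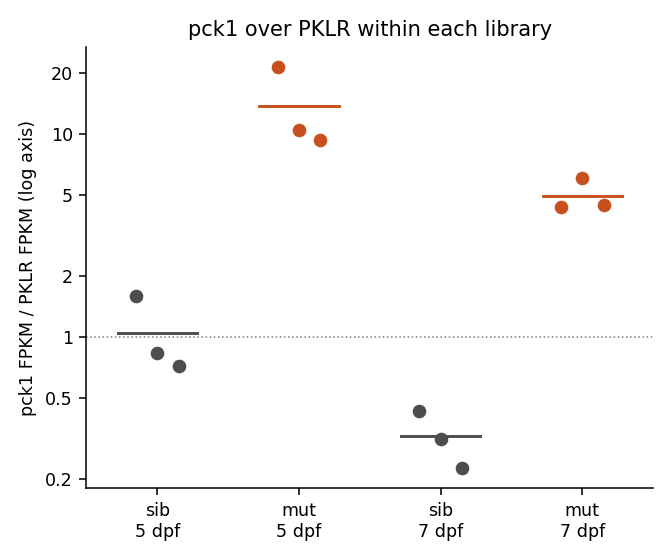
FPKM of pck1 divided by FPKM of PKLR in each library on a log axis, with siblings in grey, mutants in orange and a line at each group mean. The 3 sibling libraries at 7 dpf lie between 0.225 and 0.431 and the 3 mutant libraries between 4.37 and 6.07.

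From 5 to 7 dpf, more genes were called with age in siblings than in mutants, which is not itself a test of a difference between the genotypes. In siblings 13% of all tested genes were called lower and 12.3% higher with age, and in mutants 6.06% and 5.36%. In siblings PKLR rose 2.56-fold in the mean (log2 fold change 1.36 ± 0.25, limma adjusted p = 0.00217), gck fell (-3.00 ± 0.58, adjusted p = 0.00296) and pck2 fell (-0.87 ± 0.26, adjusted p = 0.0260). The PKLR and gck changes held in all 23 alternatives and that of pck2 in 19, with p up to 0.0984 in the rest. LCT rose by 0.56 ± 0.22 on the log2 scale without passing (adjusted p = 0.0909), and passed without sibling 5 dpf replicate 1 (adjusted p = 0.0294).

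In mutants only pck1 was called with age among the 9: it fell by 1.15 on the log2 scale (SE 0.29, adjusted p = 0.0237), to 45.5% of its 5 dpf mean, and the call held in 18 of 23 alternatives, but not without mutant 5 dpf replicate 1 or 2 or mutant 7 dpf replicate 2 or 3 (p up to 0.0915). PKLR in mutants differed by 0.21 ± 0.25 between the ages (adjusted p = 0.644). The test of whether the mutant effect differs between the ages called 0% of all tested genes in limma and 0 with voom, while 2454 genes had an unadjusted p under 0.05. Among the 9 members 2 did, PKLR (unadjusted p = 0.00712) and gck (difference 3.09 ± 0.82, unadjusted p = 0.00269, adjusted p = 0.253). No member is therefore shown to respond differently at the 2 ages.

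The other enzymes of these routes were listed by pathway, with the 9 members left out. Of 30 tested glycolysis enzymes, 1 was called lower at 5 dpf, ldhbb, a lactate dehydrogenase subunit (-0.74, limma adjusted p = 0.0126), and 1 higher at 7 dpf, a TPI1 identifier for triose phosphate isomerase (0.83, adjusted p = 0.0151). The 30 had a median log2 fold change of -0.04 at the first age and 0.15 at the second. PKLR thus stood apart in value from these 30. Their summed FPKM ran from 2950 to 3750 in mutants and 2909 to 4436 in siblings at 5 dpf. At 7 dpf it ran from 2483 to 3041 in mutants and from 2954 to 3333 in siblings, with overlap. gck, a member and so not among the 30, had log2 fold changes of -2.64 at 5 dpf and 0.45 at 7 dpf. As TPM, 5 glycolysis enzymes were higher at 7 dpf. The ldhbb call was lost without mutant 5 dpf replicate 1, and that of TPI1 without mutant 7 dpf replicate 2, sibling 7 dpf replicate 2 or sibling 7 dpf replicate 3.

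Of 9 tested gluconeogenesis enzymes, limma called 0 at either age, and so did voom, while 3 at 5 dpf and 5 at 7 dpf had an unadjusted p under 0.05. The median was -0.09 at both ages. With library weights 3 were called lower and 1 higher at 7 dpf. The summed FPKM of the list was lower in every mutant library, at 116.4 to 135.4 against 148.8 to 209.5 in siblings at 5 dpf and at 96.4 to 116.8 against 150.3 to 159.1 at 7 dpf. Abundant genes weigh most in such a sum, so it does not speak for each gene of the list. At 7 dpf fbp1a had a mean of 61.8 FPKM in mutants and 89.1 in siblings, whereas g6pc1a.1 had 6.16 and 4.14. A G6PC1 identifier (ENSDARG00000013721), for the glucose-6-phosphatase that releases glucose from hepatocytes, is named here after its values were seen: it held 36.9, 41.1 and 28.9 FPKM in mutants against 39.8, 57.6 and 43.0 in siblings at 5 dpf, and 24.3, 18.6 and 7.96 against 33.1, 33.6 and 29.7 at 7 dpf (log2 fold change -1.04 ± 0.31, adjusted p = 0.0827). Another G6PC1 identifier was under the filter. The glucose-6-phosphatase genes g6pc1a.1 and G6PC3 went the other way at 7 dpf, without being called. Their log2 fold changes were 0.50 and 0.51 (limma adjusted p = 0.162 and 0.154).

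Sugar carriers other than slc5a1 and slc2a2 went both ways. Of 18 tested, 1 was lower at 5 dpf, SLC5A11, a sodium-dependent carrier of inositol (-1.01, adjusted p = 0.0277). At 7 dpf 2 were lower, SLC5A11 (-0.87, adjusted p = 0.0394) and slc2a15a (-0.65, adjusted p = 0.0280), and 3 higher: SLC5A2, the kidney sodium-glucose cotransporter SGLT2 (1.302, adjusted p = 0.0216), SLC2A10 (0.85, adjusted p = 0.0251) and SLC2A12 (0.74, adjusted p = 0.0163). SLC5A2 stood at 3.38, 4.23 and 2.76 FPKM in mutants and 1.37, 1.88 and 0.400 in siblings at 7 dpf. The SLC5A11 call at 5 dpf was lost without mutant replicate 1 or 3 or any of the sibling replicates of that age. The 2 lower calls at 7 dpf became 0 as TPM, with a replicate block within each age, and without any 7 dpf library other than sibling replicate 3, where 1 was left. The 3 higher calls became 0 without mutant 7 dpf replicate 2 and 1 without sibling 7 dpf replicate 2.

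In the list of other fructose and galactose enzymes, 2 identifiers of AKR1B1, which encodes aldose reductase, were called lower at 7 dpf (log2 fold changes -0.87 and -0.69, limma adjusted p = 0.00441 and 0.0401). Of the 16 tested genes of that list, limma and voom called 0 higher at either age, with 1 and 4 at an unadjusted p under 0.05.

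Glycogen enzymes showed calls at 7 dpf only, though the difference between the ages was not called for any of them. Of 20 tested, limma and voom called 0 at 5 dpf, with 2 at an unadjusted p under 0.05. At 7 dpf 5 were lower and 1 higher: PPP1R3C, which targets a phosphatase to glycogen (-1.18, adjusted p = 0.000161), a GYG1 identifier for the primer glycogenin (-0.95, adjusted p = 0.00645), PYGL, liver glycogen phosphorylase (-0.89, adjusted p = 0.0289), GYS2, liver glycogen synthase (-0.89, adjusted p = 0.00137), GYS1, the muscle synthase (-0.71, adjusted p = 0.0105), and PHKG2, a phosphorylase kinase subunit (0.83, adjusted p = 0.0234). The other GYG1 identifier was not called at 7 dpf (-0.36, limma adjusted p = 0.238). The median of the list was 0.10 at 5 dpf and -0.26 at 7 dpf. Lower calls numbered 3 when sibling 7 dpf replicate 1 was left out, and the PHKG2 call was lost without mutant 7 dpf replicate 1 or 3, or without sibling 7 dpf replicate 2 or 3.

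In the gut lumen starch is cut by pancreatic amylase before the brush border enzymes act. Both amylase genes tested were lower. For amy2a the log2 fold changes were -4.65 (adjusted p = 0.00141) and, at the later age, -5.21 (adjusted p = 0.000290), and for amy2al2 -4.40 (adjusted p = 0.0131) and -4.90 (adjusted p = 0.00477). amy2a held 6.60, 26.2 and 31.1 FPKM in mutants and 318.9, 504.1 and 584.3 in siblings at 5 dpf. At 7 dpf it held 97.4, 24.8 and 21.1 FPKM in mutants and 1304, 1467 and 1419 in siblings. Of the 9 carbohydrase identifiers only 4 passed the filter, and the other 2 were not called. Without mutant replicate 1 or sibling replicate 2 the 5 dpf count was 1.

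Pyruvate leaves the route through the mitochondrion or as lactate. Of 21 tested genes of that step, 1 was lower at 5 dpf and 3 at 7 dpf: slc16a7, a monocarboxylate carrier (-1.20, adjusted p = 0.00418, and -1.56, adjusted p = 0.000450), and at 7 dpf also PDK1 (-0.88, adjusted p = 0.0299) and PDP1 (-0.62, adjusted p = 0.0266), a kinase and a phosphatase of pyruvate dehydrogenase. In limma and voom 0 were higher, with 2 and 3 at an unadjusted p under 0.05, and the lower count at 7 dpf was 1 when replicate 1 or replicate 2 of either genotype at that age was left out. Of 7 tested pentose phosphate enzymes, 0 were called at 5 dpf by limma or voom, with 1 at an unadjusted p under 0.05, and TKT, transketolase, was lower at 7 dpf (-0.88, adjusted p = 0.00447).

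Among 31 tested regulators and hormones of sugar metabolism, limma called 0 lower at either age, with 0 and 4 at an unadjusted p under 0.05, and voom called 0. Higher calls were 3 at 5 dpf and 2 at 7 dpf, where the first count was 1 with the 5 dpf groups fitted alone and the second 5 as TPM and 4 without mutant 7 dpf replicate 2. Both glucagon genes rose: gcga held 5.06, 3.64 and 4.53 FPKM in mutants against 0.756, 0.696 and 0.776 in siblings at 5 dpf, and 8.17, 6.78 and 11.1 against 1.11, 1.99 and 1.44 at 7 dpf (log2 fold changes 1.97 ± 0.21, adjusted p = 0.000408, and 2.18 ± 0.21, adjusted p = 9.71e-05). GCG rose by 1.93 ± 0.36 (adjusted p = 0.0112) and 3.08 ± 0.36 (adjusted p = 0.000359). By in situ hybridization, in contrast, the study described gcga as similar in mutants and siblings. Glucagon is the hormone that raises pck1 in the liver of vertebrates during fasting. pck1 was not called here, and a link between glucagon and pck1 in these larvae was not tested. PFKFB3, which makes the activator of the regulated step of glycolysis, was higher at 5 dpf (1.24 ± 0.28, adjusted p = 0.0366) and at 7 dpf had a log2 fold change of 1.02 (adjusted p = 0.0612). Transcripts of ins and gckr, which encode insulin and the inhibitor of glucokinase, were low. The first held at most 5.55 FPKM in any library, and gckr was under the filter. The gene mlxipl, which encodes the sugar sensor ChREBP, was not called (-0.61 and -0.62, limma adjusted p = 0.345 and 0.251).

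**Figure D4:**
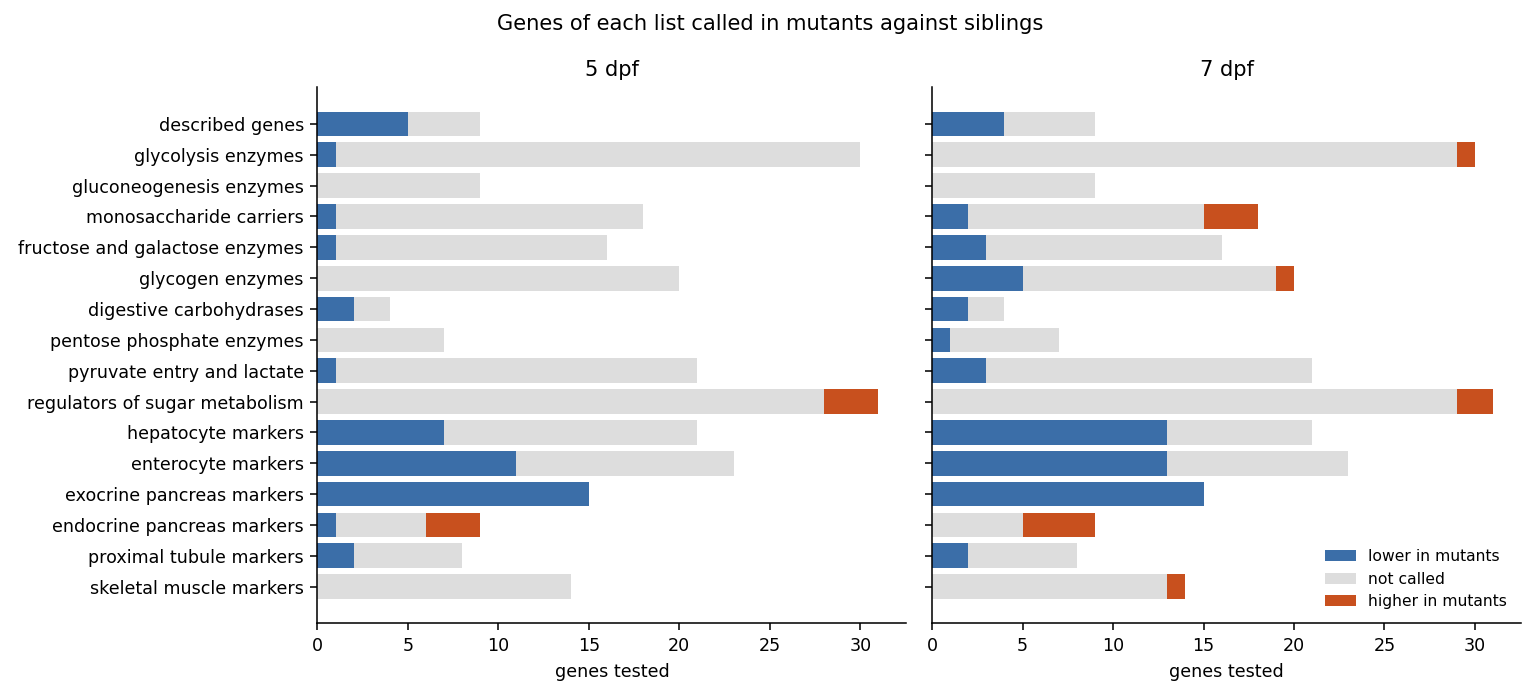
Number of tested genes in each list called lower (blue), called higher (orange) or not called (grey) in mutants against siblings at 5 and 7 dpf, by limma at an adjusted p under 0.05. The row of described genes holds the 9 tested members, with 5 and 4 lower calls, and all 15 exocrine pancreas markers are lower at both ages.

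Markers of hepatocytes, enterocytes and the exocrine pancreas moved too. Red cells, whose pyruvate kinase PKLR also encodes, had no marker list here. By in situ hybridization the study described embryonic red cell markers as nearly lost in mutants at both ages. The part of red cells in the PKLR change was not tested. Of 21 tested hepatocyte markers, 7 were lower at 5 dpf and 13 at 7 dpf, with 0 higher, and medians of -0.24 and -1.13 on the log2 scale. Their summed FPKM was 3108 to 4139 in mutants against 4385 to 7209 in siblings at 5 dpf, and 1565 to 1947 against 4010 to 4408 at 7 dpf. SERPINC1 and kng1, also on that list, were listed at 0 in every library. PKLR was lower in log2 fold change than all but 1 of these markers at 5 dpf, fabp10a, the liver fatty acid binding protein (-3.35), and lower than all of them at 7 dpf.

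Of 23 tested enterocyte markers, 11 were lower at 5 dpf and 13 at 7 dpf, with 0 higher and medians of -1.02 and -1.58. Their summed FPKM was 567 to 692 in mutants against 1277 to 1534 in siblings at 5 dpf, and 305 to 408 against 1129 to 1306 at 7 dpf. Of the 23, 6 had a lower log2 fold change than slc5a1 at 5 dpf and 13 at 7 dpf. In the higher direction, limma called 0 of either marker list, and the part of liver and gut markers in the change of any member was not tested.

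All 15 exocrine pancreas markers were lower at both ages. In mutants their FPKM summed to 175, 818 and 854 in the 5 dpf libraries and to 2240, 331 and 305 in the 7 dpf libraries, beside 8477 to 15995 and 22945 to 28149 in siblings. The mutant library with the lowest exocrine sum at 5 dpf and the one with the highest at 7 dpf, both numbered 1, were also the lowest and the highest in PKLR, at 10.4 and 26.2 FPKM. Replicates 2 and 3 ran in the opposite order at both ages, with PKLR at 19.2 and 17.2 FPKM at 5 dpf and 13.8 and 15.1 FPKM at 7 dpf. A relation between the exocrine sum and PKLR was not tested. Of 8 tested proximal tubule markers 2 were lower at both ages, pdzk1 and CUBN, the second of which is also on the enterocyte list, and 0 were called at 5 dpf without mutant 5 dpf replicate 1. Of 14 tested skeletal muscle markers 0 were called at 5 dpf and 1 was higher at 7 dpf, an ACTA1 identifier (1.196, adjusted p = 0.0151), a call lost without mutant replicate 2 or sibling replicate 3 of that age. The other ACTA1 identifier was not called at 7 dpf (0.125, limma adjusted p = 0.746). Endocrine pancreas markers, which share ins and both glucagon genes with the list of regulators, had 3 higher and 1 lower call at 5 dpf and 4 higher calls at 7 dpf of 9 tested. Their medians were 0.51 and 1.00 on the log2 scale. Their summed FPKM was 29.1 to 30.5 in mutants against 26.6 to 36.0 in siblings at 5 dpf. At 7 dpf it was 44.1 to 51.8 against 17.9 to 24.8. Whether the glucagon genes rose beyond the rest of this list was not tested.

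Over the 12 libraries the members fell into a correlated set and the rest. Pearson's r on the log2 scale is given as a description, since the libraries share genotype and age. PKLR ran with LCT (0.970), slc2a2 (0.961), khk (0.874) and slc5a1 (0.854), whereas its r with pck1 was -0.14, with pck2 -0.04, with gck 0.22 and with fbp1b 0.24. pck1 and pck2 ran together at 0.701.

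Among 6833 tested genes with a symbol and a mean of at least 5 FPKM, the 3 most like PKLR were CPB1 and PLA2G1B, which encode a digestive carboxypeptidase and a phospholipase of the pancreas, at 0.991 and 0.987, and fabp10a at 0.989. For slc2a2 they were SLC15A1, the intestinal peptide carrier, at 0.977, CYP7A1, the first enzyme of bile acid synthesis, at 0.971, and clic5b at 0.970. LCT was nearest to CYP7A1 (0.979), SLC6A19, an amino acid carrier of the brush border (0.979), and SLC15A1 (0.973), and slc5a1 to chia.1, a chitinase (0.953), TM4SF4 (0.944) and STOML3 (0.944). khk was nearest to ctsbb (0.946), S100Z (0.943) and DPEP1 (0.925).

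The remaining members had other neighbours. pck1 was nearest to SMIM13 (0.941), ssuh2rs1 (0.928) and MYOZ2, a muscle protein (0.913), and pck2 to UROD, an enzyme of haem synthesis (0.930), prxl2b (0.930) and PHYH, a peroxisomal hydroxylase (0.923). gck was nearest to LGMN (0.922), TUBA1A (0.922) and SEMA5A (0.904). No gene came close to fbp1b, whose highest values were with EPHB3 (0.790), PSME3 (0.725) and arid3b (0.717).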

How the data were processed

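Total RNA from whole larvae was sequenced by a company for the authors, who mapped the reads to GRCz11 and deposited 1 FPKM value per gene and library, with the length of each gene in bases. HISAT2 2.0.5 is listed in the processing notes of the submitters. For the counter, strand setting, annotation release and library scaling: not given in the sources used here. No files of per-comparison results were used.

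FPKM times gene length was a whole multiple of a library's step for 100% of values, within 0.01 of a read, and the reads so recovered served for depth and for voom. The 23648 genes that reached 0.5 FPKM in 3 or more of 12 libraries were fitted on log2(FPKM + 0.5) with limma 3.58.1 in R 4.3.3, as 4 groups in 1 model with 8 residual degrees of freedom and a variance trend. Tests were two-sided, with Benjamini and Hochberg adjustment over all tested genes and calls under 0.05. Mutants were compared with siblings at 5 and at 7 dpf, 7 dpf with 5 dpf within a genotype, and the 2 mutant effects with each other. The script was tested on simulated data. Python 3.11.15, scipy 1.17.1 and matplotlib 3.10.9 served for summaries and plots.

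The labels give each group the same replicate numbers. At 5 dpf, same-numbered mutant and sibling libraries deviated together (r = 0.272, 0.129 and 0.217, against -0.19 to -0.03 for other pairs). The numbers may therefore pair them, though the labels do not say what a number shares. The deviations are from group means of 3 libraries, so the values of the pairs are not independent. The main fit held no block. At 7 dpf the same-numbered libraries did not deviate together (r = 0.0540, 0.0868 and -0.02). Alternatives were another pseudocount or filter, TPM, a replicate block, library weights, voom, fewer groups, and each library left out. Every member identifier was named. Of each other list of sugar genes, up to 3 called genes with the largest change per mutant comparison were named. So were the genes of any count of 5 or fewer, and as neighbours the 3 genes of highest r. The cell type marker lists are given mainly as counts, and only some of their called genes were named. The members and the 15 other lists were chosen with earlier results of these data known. Of 317 listed symbols 38 found no match. No sequence is shown and the planned search of promoters was not run, since no sequence was at hand. A gene of the fructose and galactose list is not reported here.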

Additional observations from a re-analysis of the deposited data

How the results depend on the processing

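Across 23 alternatives (22 for the difference between the ages), 945 values of the 9 tested members kept direction and call, 42 lost the call, 5 gained it, and 34, none of them called, changed sign. Members called in mutants were 5 at 5 dpf and 4 at 7 dpf: with a replicate block within each age the first was 3, with the compared groups alone 2, and with a library left out 1 to 5 (1 without mutant replicate 1); as TPM the second was 2, and without a library 3 to 5. The blocked fits changed no other member call than those given with slc5a1, slc2a2 and LCT. The 1 member called with age in mutants was 0 without both libraries of lowest weight and 0 to 1 without a library. Calls over all genes in mutants ran from 314 to 763 without a library at 5 dpf, against 666 (314, 441 and 404 without mutant replicate 1, mutant replicate 2 and sibling replicate 2), and from 719 to 1306 at 7 dpf, against 1194 (719 without mutant replicate 2, 734 to 776 without a sibling replicate), where TPM gave 1898 and library weights 2338. TPM split them into 323 lower and 268 higher at 5 dpf and 500 and 1398 at 7 dpf, against 511 and 155, and 768 and 426, as deposited, and its median log2 fold change was 0.20 at both ages. With age, 5991 genes in siblings became 3501 with a replicate block within each age, and 2700 in mutants became 1318, 4192 with library weights, and 1394 to 3051 without a library (1394 and 1397 without mutant 5 dpf replicates 1 and 2). The difference between the ages called 0, but 2 at a pseudocount of 1 FPKM, 3 with no filter, 1 with a replicate block, 10 with library weights and 0 to 6 without a library (6 without sibling 5 dpf replicate 3).

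Small differences that changed sign (log2) were fbp1b at 5 dpf (0.31; -0.63 to 0.81 without a library), pck2 at 7 dpf (-0.04; TPM 0.17, weights 0.0359, without both libraries of lowest weight 0.0502, without a library -0.32 to 0.16), slc5a1 with age in siblings (-0.0041; block within each age 0.37, weights 0.15, voom 0.0075, both libraries 0.17, without a library -0.42 to 0.24) and khk in the difference between ages (-0.14; weights 0.0224). With age in mutants these were PKLR (0.21; weights -0.0264, without a library -0.0651 to 0.38), gck (0.09; weights -0.24, without a library -0.24 to 0.67), khk (-0.0007; pseudocount of 1 FPKM 0.0006, weights 0.15, voom 0.001, both libraries 0.0516, without a library -0.17 to 0.11), slc2a2 (0.07; -0.0389 to 0.22 without a library) and LCT (0.05; block within each age -0.0082, without a library -0.0254 to 0.11). The causes were not tested. Depth limits LCT, with 1 to 15 reads in each mutant library. Depth also limits gck, with 2, 67 and 5 reads in the 5 dpf mutant libraries and 2 to 20 reads in each library at 7 dpf.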

Other observations

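Within the mutants at 5 dpf the same libraries were often high or low across the members. Of the 10 identifiers, 7 were highest in the library numbered 2, among them gck at 1.42 FPKM against 0.0433 and 0.1002 and fbp1b at 19.3 FPKM against 2.18 and 2.35. The share of all tested genes that were highest in that library was not computed, so this is not shown to be particular to the members. The 2 LCT identifiers overlap, and several members are correlated, so the 7 are not separate observations.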
